A study of Mus musculus with 2 samples.

Results

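The chemokines described here are 10 leukocyte attractants grouped as the chemokines of injured kidney: Cxcl1, Cxcl2, Cxcl10, Cxcl12, Cxcl14, Cxcl16, Pf4, Ccl2, Ccl7 and Cx3cl1. They were found by taking every probe set whose single gene symbol in the platform annotation was one of these names, which gave 19 of the 45101 probe sets on the array and 10 of its 18194 named genes. That rule uses names and no measured value, but the names were chosen with earlier results of these data known. Kidneys of male C57BL/6 mice, 8 weeks old, were taken 24 h after both had been made ischemic for 30 min while warm and then reperfused, which injures the tubules (AKI in the labels stands for acute kidney injury). The WT AKI pool held 180 mg of frozen tissue of 3 wild-type mice, and the EST KO AKI pool held 124 mg of 6 mice lacking EST, estrogen sulfotransferase, the enzyme that inactivates estrogens by sulfation. Each pool was read on 1 array, so no value carries an error between mice, no test between genotypes was possible and no p-value is given. Both pools were injured, so nothing here compares injured with uninjured kidney, and the part of the EST gene that is disrupted is not stated in the labels.

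Chemokines are small proteins that bind G-protein-coupled receptors on leukocytes and heparan sulfate on cell surfaces and matrix, and so direct cells along a gradient. They are classed by the spacing of their first cysteines into the CXC, CC and CX3C families. After renal ischemia, stressed tubule and endothelial cells are known sources of neutrophil and monocyte attractants, while others of the family, such as Cxcl12, are made constitutively by stromal and epithelial cells.

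Values are the deposited linear intensities, given for the WT pool and then the EST KO pool. Background was the 95th percentile of 129 probe sets of gene families mostly silent in kidney, 676.1 and 638.3. Values below it were held at it before a ratio was taken, and no ratio is given where both pools lay below it. Sult1e1, which encodes EST, was read by 1 probe set at 472.7 and 17.2, below background in both pools, so it does not check the genotype label. The treatment text of the labels calls the EST KO tissue liver, whereas the other fields call it kidney. All 12 proximal tubule markers on the array were measured. Of 11 hepatocyte markers on the array, 7 were below background in both pools, among them Alb (487.9 and 522.3), and 4 were measured. Of these, Ttr read 1716 and 11957 and Cps1 730.7 and 811.7. Cyp3a11 passed background in the EST KO pool alone (556.2 and 691.5), and Apob in the WT pool alone (778.6 and 475.1). The arrays limit precision by their number, and the disagreement between probe sets of 1 gene is the only error that can be read from them. In the 1663 genes for which 2 or more probe sets passed background on both arrays, the log2 ratios of the 2 brightest differed by a median of 0.21, and by less than 0.81 for 95% of genes.

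Cxcl1 was higher and Pf4 lower in the EST KO pool, and the other measured chemokines lay close together between them. Of the 10 genes, 7 were above background in both pools and 3 (Cxcl10, Ccl2 and Ccl7) in neither. A gene was called when the pools were at least 2-fold apart. Among the 7, 1 was called higher in the EST KO pool, against 3.02% of the 7480 measured genes, and 1 was called lower, against 1.40%. Those called either way made up 4.43% of all measured genes, and each of the 2 chemokine calls is a single gene. The median log2 ratio of the 7, taken as EST KO minus WT, was −0.08, beside −0.06 for all measured genes. By direction at any size, 2 of the 7 were higher and 5 lower, beside 3262 higher and 4084 lower over all measured genes. Centring each array on its median shifts every ratio up by 0.11, and the median of the 7 then became 0.031, with 4 higher and 3 lower, since Cxcl12 (0.031) and Cxcl16 (0.073) changed sign. For 5 of the 7, the log2 ratio was smaller than the 0.81 within which 95% of probe set pairs agreed. Most genes lie within it too, since the 5th and 95th percentiles over all measured genes were −0.67 and 0.80. The 2 beyond it were Cxcl1 and Pf4, and Pf4 came within it (−0.63) with a pseudocount in place of the floor.

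**Figure D1:**
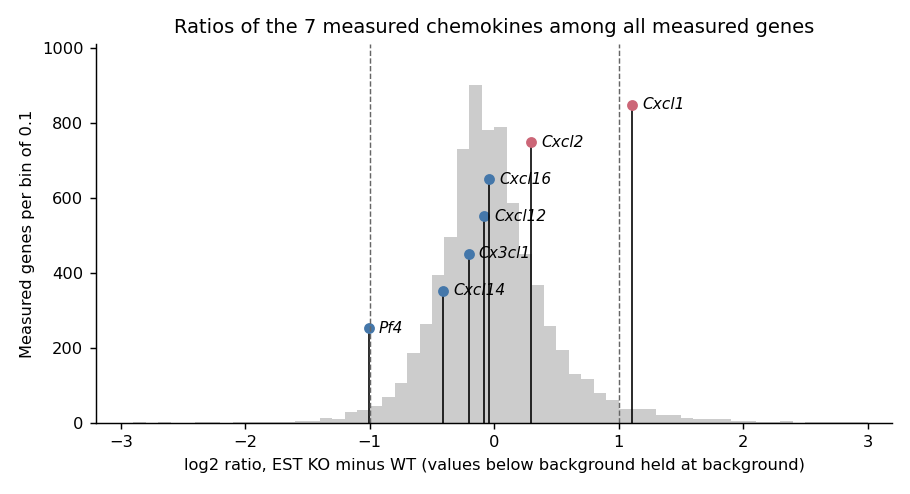
Histogram of the log2 ratio (EST KO minus WT, x axis) of the measured genes that have an order, as the number of genes per bin of 0.1 (y axis), with the 7 measured chemokines marked by stems whose heights only separate the names; dashed lines mark 2-fold. Cxcl1 stands at 1.11, to the right of the upper line, Pf4 at −1.01 lies on the lower line, and the other 5 lie inside the bulk of genes.

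The promoters of Cxcl1, Cxcl2 and Pf4 are shown because these genes are neighbours in the CXC cluster of chromosome 5 and yet had different ratios. Cxcl1 lies directly beside Cxcl2, and Pf4 lies a few genes away, with Cxcl3 and Cxcl15 in between. The 110 bases before each gene start, from RefSeq on build GRCm38.p6, all on the plus strand, are printed 5′ to 3′ with every match to the kB consensus, the sequence that NF-kB dimers bind, in capitals. They span chr5:90891135-90891244 for Cxcl1, chr5:90903789-90903898 for Cxcl2 and chr5:90772325-90772434 for Pf4.
Cxcl1: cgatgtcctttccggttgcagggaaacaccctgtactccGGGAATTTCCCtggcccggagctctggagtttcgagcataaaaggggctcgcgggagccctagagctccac
Cxcl2: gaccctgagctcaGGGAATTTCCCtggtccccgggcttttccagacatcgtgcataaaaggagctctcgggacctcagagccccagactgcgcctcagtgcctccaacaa
Pf4: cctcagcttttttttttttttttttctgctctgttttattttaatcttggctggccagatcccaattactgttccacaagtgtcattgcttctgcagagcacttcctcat
The longest run that the 250 bases before Cxcl1 and Cxcl2 share is GGGAATTTCCCTGG, 14 bases that begin 71 bases before the start of Cxcl1 and 97 before that of Cxcl2. In both it holds the consensus on each strand, the matches overlapping by all but a base. No match was found in the window of Pf4.

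The table of promoters held 7 of the 10 genes (Cxcl1, Cxcl2, Cxcl10, Cxcl12, Cxcl14, Pf4 and Cx3cl1). In the 250 bases before the start, searched on both strands, 3 of them held the kB consensus: Cxcl1, Cxcl2 and Cxcl10. Of all 32851 windows of that length, 7.25% did. The interferon-sensitive response element, searched as GAAANNGAAA, was found before Cxcl10 and Cxcl14 and in 2.98% of all windows. The AP-1 site, searched as TGANTCA, was found only before Cxcl10 among the 7, and in 6.75% of all windows. Such a match describes letters in a window and is not a measured binding site.

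Cxcl1, a neutrophil attractant that acts through Cxcr2, was the chemokine with the highest ratio, and all 3 of its probe sets were higher in the EST KO pool. The probe set 1419209_at read 1096 and 4913, a log2 ratio of 2.16 or 4.48-fold. The probe set 1457644_s_at read 1150 and 4543, 3.95-fold higher at a log2 ratio of 1.98. The brightest, 1441855_x_at, read 2964 and 6388, with a log2 ratio of 1.11. All 3 thus placed the EST KO pool above the WT pool by at least 2-fold, and differed in how far. The lowest and highest of these ratios were 1.06 apart, more than between the 2 probe sets of 98.2% of the 1663 genes compared. The suffixes of the probe sets 1441855_x_at and 1457644_s_at mark designs that may also read other transcripts, whereas 1419209_at is not of that kind. By its brightest probe set Cxcl1 lay above 97.5% of measured genes. With that probe set the log2 ratio was 0.94 after quantile normalization and 0.96 with a pseudocount, both under 2-fold, while the other probe sets stayed between 1.52 and 2.28 under the scalings and the pseudocount.

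Cxcl2, the other Cxcr2 ligand measured, was read by 1 probe set at 908.7 and 1116, a log2 ratio of 0.30. This lies within the disagreement between probe sets and above 80.3% of measured genes. Over the settings its ratio ran from 0.18 to 0.41. Only centring, quantile normalization and the pseudocount could change it, since its 1 probe set is unshared and above background in both pools. The Cxcr2 ligands next to them on the chromosome, Cxcl3 (30.4 and 76.2), Cxcl5 (214.9 and 93.4) and Ppbp (189.6 and 171.1), lay below background in both pools. The receptor Cxcr2 itself read 141.8 and 150.6, also below background.

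Neutrophil markers went the other way from Cxcl1. All 5 measured of the 12 on the array were lower in the EST KO pool, with a median log2 ratio of −0.51 and summed levels over the measured genes of 5894 and 3513. The sums include Mmp8 (908.9 and 632.7) and Mmp9 (697.7 and 498.5), which were below background in the EST KO pool, so their ratios are bounds. S100a8, a calprotectin subunit, read 2093 and 649.3, the latter close to the background of 638.3, and its partner S100a9 read 1303 and 916.9. The granule gene Ngp read 892.0 and 815.9. Of these 3, which were above background in both pools, only S100a8 (log2 −1.69) lay beyond the 0.81 of probe set disagreement. S100a9 (−0.51) and Ngp (−0.13) lay within it. The other 7, among them Mpo, Elane, Camp and Csf3r, lay below background in both pools. In pooled tissue, fewer cells of a type and less RNA per cell cannot be told apart, and the part of cell makeup in the chemokine values was not tested.

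**Figure D2:**
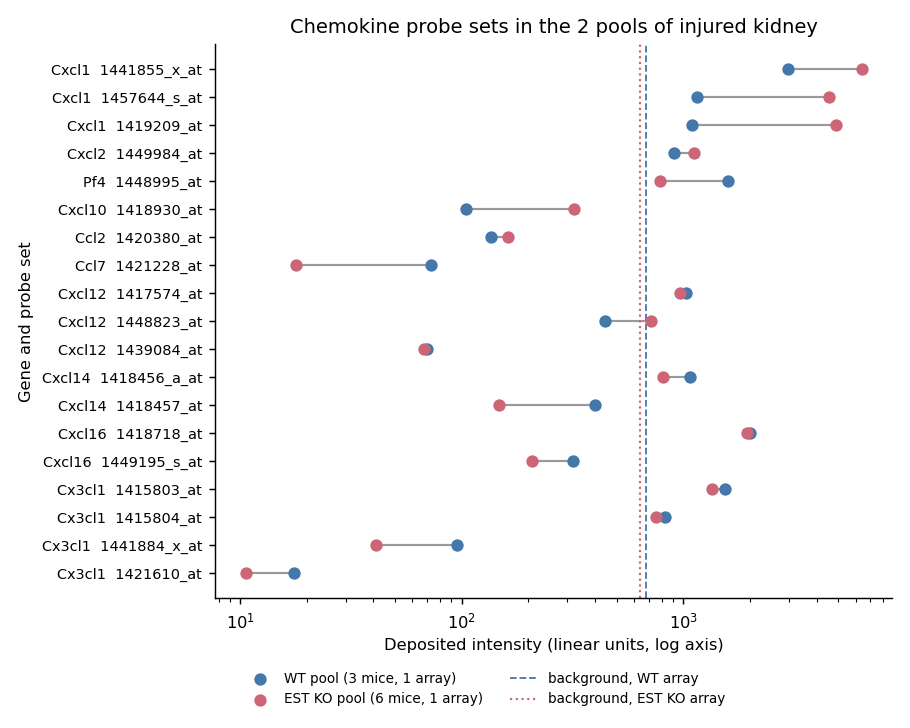
Deposited intensity (x axis, log scale) of each of the 19 chemokine probe sets (y axis, gene and probe set) in the WT pool (blue) and the EST KO pool (red), 1 array each, with dashed and dotted lines at the backgrounds of 676.1 and 638.3. All 3 Cxcl1 probe sets shift right in the EST KO pool, Pf4 shifts left, and 8 probe sets lie left of both lines.

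Pf4, the platelet factor stored in platelet granules and also transcribed by tissue macrophages in mice, had the lowest ratio. Its 1 probe set read 1586 and 788.5, 2.01-fold lower in the EST KO pool, and only 1.39% of measured genes had a lower ratio. The call sits on the threshold: the log2 ratio of −1.01 became −0.90 with each array centred on its median, −0.99 after quantile normalization and −0.63 with a pseudocount. With a single probe set there is no second reading of it.

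Other platelet genes gave little to set beside Pf4. Of 7 on the array, 1 was measured: Treml1, a receptor of platelet granules, read 846.8 and 912.0. Ppbp, Itga2b, Gp9, Gp1bb, Gp5 and Itgb3 were below background in both pools. Monocyte and macrophage markers were lower for 6 of 7 measured genes of the 13 on the array, with a median log2 ratio of −0.34 and summed levels of 13293 and 8780. The sums include Cd68 (813.9 and 635.9) and C1qc (809.1 and 304.7), which were below background in the EST KO pool, so their ratios are bounds. Cd14, the lipopolysaccharide co-receptor, read 5159 and 2444, and Csf1r, the receptor that macrophages need for survival, read 2582 and 2194. The exception was C1qb, a complement subunit, at 1274 and 1369, whose other probe set above background read 793.7 and 435.8. Adgre1, which encodes the macrophage antigen F4/80, was below background in both pools. Pf4 and these markers were lower together, and their part in its value was not tested.

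The monocyte attractants Ccl2 and Ccl7, ligands of Ccr2 that lie side by side on chromosome 11, were not measurable. Ccl2 read 135.8 and 162.6, at percentiles 40.3 and 48.1 of the silent gene families. Ccl7 read 72.4 and 17.8, at percentiles 31.0 and 6.98. Neither pool thus held a Ccl2 or Ccl7 signal that this array could separate from silent genes, and the direction of such values has no meaning. Their receptor Ccr2 was also below background (383.7 and 288.0).

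Cxcl10, an interferon-induced attractant of T cells that acts through Cxcr3, read 104.6 and 320.0. The WT value stood at percentile 35.7 of the silent families and the EST KO value at percentile 72.9, so both lay below background and no ratio is given. Cxcl9 (58.7 and 70.1) and Cxcl11 (55.1 and 172.9), which share the receptor, were below background as well, as was Cxcr3 (318.2 and 267.9). T cell markers such as Cd3e (119.9 and 114.8) were below background in both pools, though Cd8a read 1467 and 1333 at its brightest probe set.

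Interferon response genes were mostly dim. Of 14 on the array 5 were measured, 2 higher and 3 lower, with a median log2 ratio of −0.19. None of the 3 above background in both pools was 2-fold apart, and the ratios of the other 2, Oas1a and Irf7, are lower bounds. Oas1a, an antiviral nucleotide synthetase, was lower by at least 1.31-fold (839.0 and 189.6). Irf7, a transcription factor of the interferon response, was at least 1.30-fold lower (827.8 and 537.1). Rsad2, which encodes the antiviral protein viperin, went the other way at 953.1 and 1239. Irf1, an interferon gamma target, read 1628 and 1755, and Irf3, a constitutive factor, 2644 and 2316.

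The constitutive and membrane-bound chemokines differed little between the pools. Cxcl12, which retains leukocytes and stem cells through Cxcr4, read 1024 and 968.9 at its brightest probe set, a log2 ratio of −0.08. A second probe set, 1448823_at, read 441.9 and 715.3, above background in the EST KO pool alone, and the third was below background in both (70.1 and 67.3). The probe sets of Cxcl12 therefore gave no common direction. Its signalling receptor Cxcr4 was below background (329.4 and 221.7). Ackr3, an atypical receptor that scavenges Cxcl12, was higher in the EST KO pool by at least 1.36-fold (335.3 and 916.6).

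Cxcl16, a transmembrane chemokine that is also a scavenger receptor, read 2001 and 1949 at the probe set 1418718_at, a log2 ratio of −0.04. Its other probe set was below background (319.8 and 207.7), as was its receptor Cxcr6 (253.1 and 374.7). Cx3cl1, or fractalkine, a transmembrane adhesion molecule for monocytes, read 1546 and 1343 at one probe set and 825.8 and 752.8 at another, with log2 ratios of −0.20 and −0.13. Its 2 remaining probe sets lay below background (95.1 and 41.2, and 17.5 and 10.6), and so did its receptor Cx3cr1 (162.3 and 78.9). Over the settings Cx3cl1 stayed lower, between −0.21 and −0.09. Removing the floor, lowering the background or dropping shared probe sets could not change its value. Its brightest probe set is unshared and above background in both pools.

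Cxcl14, a chemokine of epithelia, was 1.33-fold lower in the EST KO pool at 1075 and 810.0, a log2 ratio of −0.41. The second probe set read 401.0 and 147.2, below background in both pools. The first, 1418456_a_at, is of a design that can read several transcripts, so leaving such probe sets out gave Cxcl14 no value. Of measured genes, 15.3% had a lower ratio than Cxcl14, and its value lies within the disagreement between probe sets. It kept its sign under the 6 alternatives that gave it a value, though removing the floor or lowering the background could not change it. Its lowest and highest ratios over all settings were −0.41 and −0.24.

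**Figure D3:**
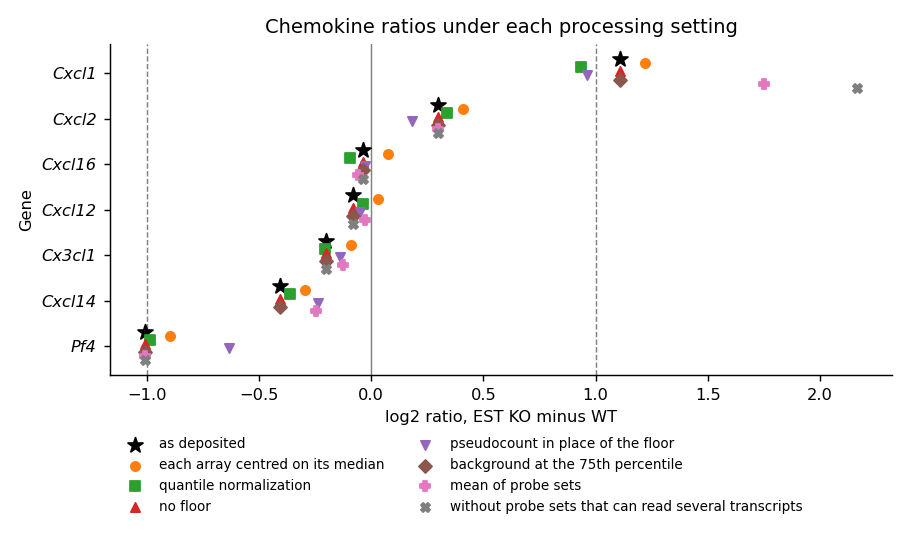
log2 ratio (EST KO minus WT, x axis) of each of the 7 measured chemokines (y axis) under the values as deposited (black star) and 7 alternative settings; dashed lines mark 2-fold. Cxcl1 runs from 0.94 to 2.16 and Pf4 from −1.01 to −0.63, while Cxcl12 and Cxcl16 cross 0.

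Of the chemokine ligands not among the 10, 6 of 25 on the array were measured, and none was 2-fold apart. Their median log2 ratio was −0.27, with 2 higher and 4 lower. Ccl4, a macrophage inflammatory protein, read 1527 and 1159 (log2 −0.40). Ccl9, a myeloid attractant of rodents, read 879.4 and 695.2 (−0.34). Ccl28, an epithelial chemokine of mucosal surfaces, read 1610 and 1320 (−0.29), and Cxcl13, the B cell attractant, 2356 and 1978 (−0.25). Ccl8 (799.3 and 825.2) and Cxcl17 (1530 and 1548) were nearly level. Ccl3, Ccl5, Ccl12, Ccl20 and the other 15 were below background in both pools.

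Receptors were almost all below background. Of 21 chemokine receptors on the array, 2 passed in 1 pool each and none in both. Besides Ackr3, this was Ackr1, the atypical receptor of venular endothelium and red blood cells, which was lower by at least 1.08-fold (691.0 and 568.3). None of the signalling receptors on the array was measured, so no ligand can be set beside the level of the receptor that signals for it.

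Among inducing cytokines and their receptors, 12 of 27 were measured, 4 higher and 8 lower, with a median log2 ratio of −0.23. None of the 9 above background in both pools was 2-fold apart, and the other 3 (Il1b, Ifnar1 and Ifnar2) have lower bounds only. Tnf (54.7 and 72.5), Il6 (299.6 and 269.9) and Ifng (112.0 and 97.3) were below background in both pools. Il1b, the cytokine interleukin-1 beta, was lower in the EST KO pool by at least 1.22-fold (776.8 and 550.9). Tnfrsf1a, the main TNF receptor, was 1.47-fold lower (6813 and 4648), and Il1rap, the shared subunit of interleukin-1 receptors, 1.57-fold lower (1014 and 646.0). Il6st, the signalling subunit gp130, went the other way at 1.81-fold higher (1382 and 2495), with its other 2 probe sets above background at log2 ratios of 0.22 and 0.91. Ifngr1, an interferon gamma receptor subunit, read 905.8 and 1153, and Ifnar1, of the type I interferon receptor, was at least 1.19-fold lower (760.5 and 531.1).

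NF-kB genes and regulators of chemokine mRNA decay were measured for 13 of 16 on the array, 9 higher and 4 lower, with a median log2 ratio of 0.08. Rela, the p65 subunit, read 5409 and 6837, 1.26-fold higher in the EST KO pool. The inhibitor gene Nfkbib read 964.2 and 1289, and Nfkbiz, a nuclear coactivator of NF-kB, 1990 and 2262. Tnip1, a brake on the pathway, read 1166 and 1399. Ikbkg, the NEMO scaffold of the kinase that activates NF-kB, was 1.66-fold lower (1587 and 955.5). Each of the 4 Ikbkg probe sets that passed background was lower, at log2 ratios from −1.14 to −0.46. Zfp36l1, which marks mRNAs with AU-rich elements for decay, was 1.44-fold lower (8310 and 5770), with a second probe set at −1.08. Zfp36, the family member known to act on Cxcl1 mRNA, read 3029 and 3176, and Nfkbia, the NF-kB target that encodes its inhibitor, 10470 and 11753. These last 2 fall outside the rule for named genes, having been chosen once their values were known. The median of this list turned to −0.028 without the probe sets that can read several transcripts.

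Genes that shed, cleave or tether chemokines were measured for 9 of 11 on the array, 3 higher and 6 lower, with a median log2 ratio of −0.19. None of the 8 above background in both pools was 2-fold apart, and Mmp9 (697.7 and 498.5) has a lower bound only. Adam10, the protease that sheds Cx3cl1 and Cxcl16 from the membrane, read 1745 and 1343 (−0.38), and its second probe set gave −0.32. The syndecans, which carry the heparan sulfate that holds chemokines, were split. Sdc1 was 1.77-fold lower (1841 and 1041) and Sdc2 1.78-fold higher (1266 and 2258). Ext1, which builds the heparan sulfate chain, was 1.75-fold higher (863.5 and 1509). Mmp14 (1345 and 1060) and Mmp2 (821.7 and 718.5), metalloproteinases that can trim chemokines, were lower. Across the 6 pathway lists, 36 of the 47 measured entries were above background in both pools. None of these 36 was 2-fold apart at its brightest probe set. Dimmer probe sets of Ikbkg (−1.14) and Zfp36l1 (−1.08) were. Of all measured genes 4.43% were 2-fold apart, a share that also counts genes above background in 1 pool alone. The other 11 were above background in 1 pool alone, and their ratios are lower bounds under 2-fold, so a larger difference was not measurable.

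**Figure D4:**
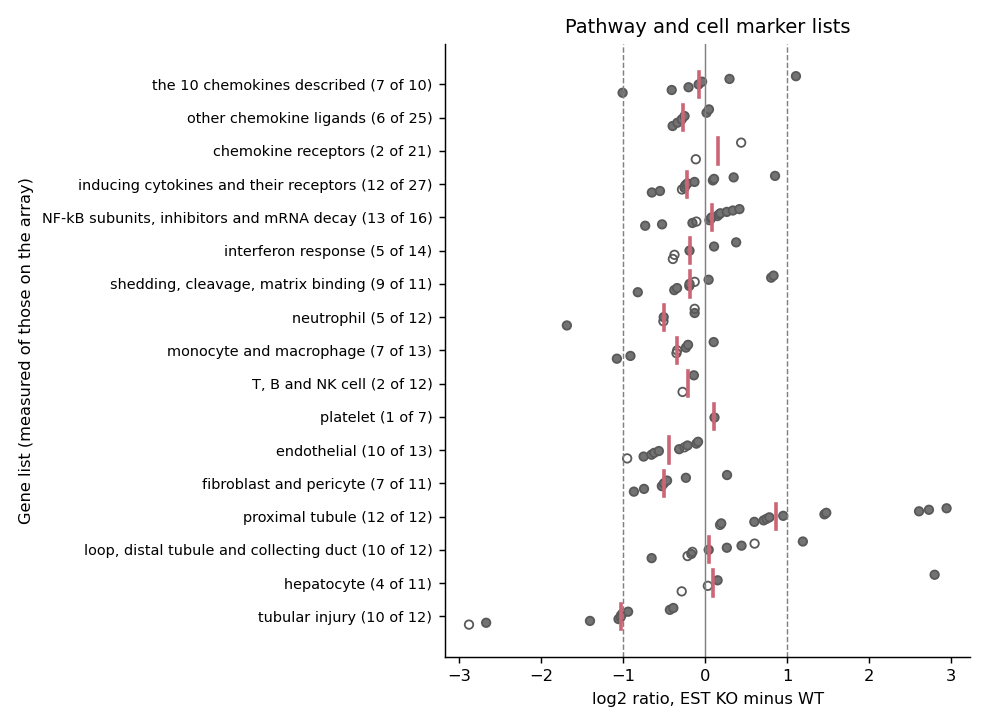
log2 ratio (EST KO minus WT, x axis) of the measured genes of each list (y axis, with the number measured of those on the array), with red bars at list medians and open circles for genes above background in 1 pool alone, whose ratios are bounds; dashed lines mark 2-fold. The filled circles of the 6 pathway lists stay inside the lines, neutrophil and macrophage genes lie mostly to the left, and proximal tubule genes to the right.

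Markers of the cells that could make these chemokines differed as well. All 10 measured endothelial genes of 13 were lower in the EST KO pool (median −0.44, summed levels 14084 and 10211), or 8 of 10 after centring each array on its median, and 6 of 7 measured fibroblast and pericyte genes of 11 were lower (median −0.50, summed 13117 and 10366). All 10 measured tubular injury genes of 12 were lower (median −1.03). By their brightest probe sets all 12 proximal tubule genes were higher (median 0.87), or 11 of 12 after quantile normalization. The probe sets of Kap disagreed, at 33733 and 38640 for the brightest and 39386 and 31174 for another. Ratios of Slc5a12 (77.3 and 766.7), 2 endothelial genes and 2 tubular injury genes are bounds, since each was above background in 1 pool alone. Of 12 loop, distal tubule and collecting duct genes, 10 were measured, with 5 higher and 4 lower (median 0.04). Of these 10, 4 were above background in 1 pool alone. Among them Scnn1g (165.9 and 668.1) gave no ratio, its EST KO value lying below the WT background. Cxcl1 was thus higher in the pool where the injury markers Lcn2 (35378 and 16994) and Krt8 (12602 and 9348) were lower. All 3 Krt8 probe sets were lower, at log2 ratios from −0.51 to −0.08, which lie within the disagreement between probe sets. The part of any of these cell types in a chemokine value was not tested.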

How the data were processed

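Biotinylated cRNA from each pool was hybridised to an Affymetrix mouse array, per the labels. The authors deposited 1 linear intensity per probe set; how probes were summarised is not given in the sources used here. Trimmed of 2% at each end, each array's mean was 500, and array medians (261.8 and 242.4) differed by under 10%, so values were used as deposited. Probe sets above background made up 24.0% and 24.2%. Symbols were updated by Entrez ID through RefSeq (GRCm38.p6; 34754 of 34958 single-symbol probe sets matched; 932 had several symbols and 9211 none), and a gene was read from its brightest probe set. Ratios are log2, computed from the deposited intensities with Python 3.11.15, numpy 2.4.6 and pandas 2.3.3. The calculation was tested on simulated data with larger changes in bright genes, which does not cover calls near 2-fold or near background. Named genes are the 10 chemokines, up to 6 measured genes per pathway list by absolute log2 ratio and up to 3 per cell type list by level; single unmeasured receptors, cytokines and markers are named besides. Members and lists were chosen with earlier results of these data known. With 2 arrays, no likeness between genes' patterns was computed. The 7 alternatives changed scaling, the floor, background or the probe sets used.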

Additional observations from a re-analysis of the deposited data

How the results depend on the processing

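No replicate could be left out, since each genotype had 1 array. No paired analysis was possible because the pools share no replicate. A value counted as moved when it shifted by over 0.21 (log2), the median disagreement between probe sets, or changed sign. A count was taken as moved when it changed by over 1.5 times. Of 130 comparisons with an alternative, 22 moved. None of the 2-fold ratios, which are those of Cxcl1 and Pf4 alone, turned sign. Centring shifts ratios by 0.11 and the pseudocount only shrinks them, so neither could turn these. Some of the 130 could not move, such as the floor for a gene above background in both pools. Cxcl1 was at 1.75 with the mean of its probe sets and 2.16 without those that can read several transcripts. Its other probe sets, an alternative added after seeing the data, fell from 2.16 to 1.67 and from 1.98 to 1.52 with the pseudocount, which shrinks dim ratios. Pf4 was at −0.63 with it. The count of chemokines at least 2-fold higher went from 1 to 0 with quantile normalization and with the pseudocount, and the count lower from 1 to 0 with these and with centring. With centring Cxcl12 and the median of the 7 were at 0.031 and Cxcl16 at 0.073. The receptor list, resting on 2 genes, went from 0.16 to 0.58 with no floor and −0.10 with background at the 75th percentile, and the NF-kB list to −0.028 without shared probe sets. Over all genes, 226 were higher and 105 lower. Higher genes numbered 133 with the pseudocount and 150 with the mean of probe sets. Lower genes numbered 39 with the pseudocount, 57 with the mean of probe sets, 197 with no floor and 204 with background at the 75th percentile. Signal over background limits Cxcl10, Ccl2, Ccl7 and nearly all receptors, and with 1 pool per genotype no setting bears on the spread between mice.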
